A study of Mus musculus with 12 samples.

Results

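The 8 genes of the conventional neurotransmitter release machinery were followed through 12 libraries of mouse retina: Snap25, Stx1a, Vamp1 and Vamp2 of the SNARE complex, the calcium sensor Syt1, the complexin Cplx1 and the synapsins Syn1 and Syn2. They were chosen by gene symbol, 8 of the 56748 entries of the scaled count table and of the 55372 genes of the TPM table, and all 8 had 1 row in each. From textbook knowledge they were divided into 3 isoforms that rods share with other neurons (Snap25, Syt1 and Vamp2) and 5 isoforms of the inner retina (Syn1, Syn2, Stx1a, Vamp1 and Cplx1). The question was how far each was lost when rod messages were pulled out of the retina.

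Retinas came from 2-month-old mice lacking the photoreceptor transporter ABCA4 (Abca4-/-, here Abca4Ko) and from littermate controls (Abca4+/+). In both, cycloheximide was perfused to keep ribosomes in place on messenger RNA. Per the study's methods, the ribosome tag (RiboTag) is switched on in rods by rhodopsin-Cre (i75Cre), so it marks only cells in which that Cre was active. Translating ribosome affinity purification (TRAP) of tagged ribosomes gave the rod TRAP libraries, and the lysate before the pull-down gave the retina libraries, with 3 libraries for each genotype and fraction. The cDNA input was 10 ng for every rod TRAP library and 5 ng for every retina library, so it cannot be told apart from fraction. Neither the sex of the mice nor the number of retinas behind a library is stated in the sources used here, so p-values measure the spread between these libraries, which may be partly technical. The scaled counts summed to 17096515 to 17097707 per rod TRAP library and 17860761 to 17862326 per retina library, because the deposited values had been brought to a common total in each fraction, and the read depth before that scaling was not recovered. Of the 12 rod marker genes, all 12 were higher in control rod TRAP than in control retina, and their summed level was 196% ± 8.59 of the retina mean (SD, n = 3 libraries). Abca4 was at 520, 581.8 and 494.1 TPM in the control retina libraries and at 1.8, 5.9 and 129.4 TPM in the Abca4Ko retina libraries, and in rod TRAP at 876.7 to 991.6 TPM in controls and at 2.9, 6.3 and 215.9 TPM in Abca4Ko. The libraries labelled Abca4Ko replicate 3 therefore kept Abca4 messages in both fractions, and the main values that use them are also given without them.

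At a conventional synapse, the vesicle SNARE synaptobrevin (VAMP) zips together with syntaxin and SNAP25 on the plasma membrane, complexin holds the assembled complex, and synaptotagmin triggers fusion when calcium enters. Synapsins tether the reserve pool of vesicles. Rods, cones and bipolar cells release glutamate at ribbon synapses, which use syntaxin 3 and complexins 3 and 4 in place of syntaxin 1 and complexins 1 and 2 and are known to lack synapsins, whereas amacrine and ganglion cells use the conventional set.

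Promoter sequence is shown for an inner retina gene with a motif known for neuronal genes (Syn1), for the syntaxins of conventional and of ribbon synapses (Stx1a and Stx3) and for a gene shared with rods (Syt1). RefSeq promoters on GRCm38.p6 were found for 6 of the 8 genes and for Stx3 and Cplx3, and the 250 bases before the start are printed 5′ to 3′ on the strand of the gene, with motif letters found on either strand in capitals. The windows lie at chrX:20920919-20921168 on the minus strand for Syn1, chr5:135023232-135023481 on the plus strand for Stx1a, chr19:11819404-11819653 on the minus strand for Stx3, and chr10:109010976-109011225 on the minus strand for Syt1.
Syn1: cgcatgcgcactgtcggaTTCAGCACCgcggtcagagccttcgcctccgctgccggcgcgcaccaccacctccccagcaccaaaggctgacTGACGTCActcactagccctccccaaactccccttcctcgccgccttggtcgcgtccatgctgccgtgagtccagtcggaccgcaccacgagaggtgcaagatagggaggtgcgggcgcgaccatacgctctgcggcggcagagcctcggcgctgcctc
Stx1a: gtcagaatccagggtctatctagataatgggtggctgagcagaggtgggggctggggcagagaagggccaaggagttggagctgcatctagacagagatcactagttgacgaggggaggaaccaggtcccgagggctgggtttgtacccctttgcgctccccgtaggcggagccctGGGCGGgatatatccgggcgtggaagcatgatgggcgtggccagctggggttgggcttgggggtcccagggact
Stx3: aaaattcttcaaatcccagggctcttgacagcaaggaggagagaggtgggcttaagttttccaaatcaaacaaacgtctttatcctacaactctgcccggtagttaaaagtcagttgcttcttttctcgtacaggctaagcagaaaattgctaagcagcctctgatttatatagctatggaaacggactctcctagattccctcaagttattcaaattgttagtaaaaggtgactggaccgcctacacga
Syt1: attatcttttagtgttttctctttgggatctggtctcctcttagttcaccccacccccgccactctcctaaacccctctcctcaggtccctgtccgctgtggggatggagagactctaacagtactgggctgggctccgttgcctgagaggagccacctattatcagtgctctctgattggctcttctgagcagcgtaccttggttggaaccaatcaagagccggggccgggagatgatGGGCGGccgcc
In Syn1 the capitals mark the left arm of the RE1 element (TTCAGCACC), the binding sequence of the repressor REST, 232 bases before the start, and a cyclic AMP response element (TGACGTCA) 159 bases before it. The RE1 arm was present in 0.301% and the cyclic AMP element in 1.55% of 32851 mouse promoters of this length. The core letters of an NRL site (TGCTGA, NRL being the rod determining factor) overlapped the RE1 arm on the other strand. These letters occurred in 16.1% of promoters and were also in the Cplx3 window. Capitals in Stx1a and Syt1 mark a GC box (GGGCGG), which 32.7% of promoters held and which was also found in Syn2, Vamp1 and Cplx1. The CRX letters TAATCC, in 6.25% of all promoters, and the right arm of RE1 (GGACAGC), in 5.28%, were in none of the windows searched, and the Stx3 window held none of the 6 motifs. These matches describe letters in the windows and do not show binding.

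The 3 isoforms shared with rods stood at 70.5% to 215% of the retina level in control rod TRAP, whereas the 5 inner retina isoforms stood at 1.34% to 5.27%. In Abca4Ko the ranges were 72.0% to 145% and 1.48% to 5.74%, and without replicate 3 they were 72.2% to 178% and 1.74% to 6.29%. By the limma test of rod TRAP against retina, with p-values adjusted over all genes tested, 7 of the 8 genes were called in control (2 higher and 5 lower) and 6 in Abca4Ko (1 higher and 5 lower). Of the 5 lower, Stx1a and Syn2 passed the filter on low values only through the retina libraries, so that a difference was fixed for them and their calls add no support. Calls were common in this comparison, since 75.4% of all 16286 genes tested were called in control (36.6% higher and 38.8% lower) and 64.1% of 16036 in Abca4Ko (30.4% higher and 33.7% lower), so the count itself sets the 8 genes little apart and the sizes of the folds carry the contrast. Likewise the scaled counts of the fractions did not overlap for 7 of the 8 genes in control, against 83.4% of all genes, and for 6 in Abca4Ko, against 69.6%. Log2 folds below are of scaled counts after the libraries were rescaled so that the median gene lies near 0 (-0.03 in control). With the authors' scaling alone, the median gene was at -0.62 in control and -0.49 in Abca4Ko, and the calls in control moved from 5968 higher and 6317 lower to 3415 higher and 9549 lower. In these bulk libraries, fewer cells of a type and less RNA per cell cannot be told apart.

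**Figure D1:**
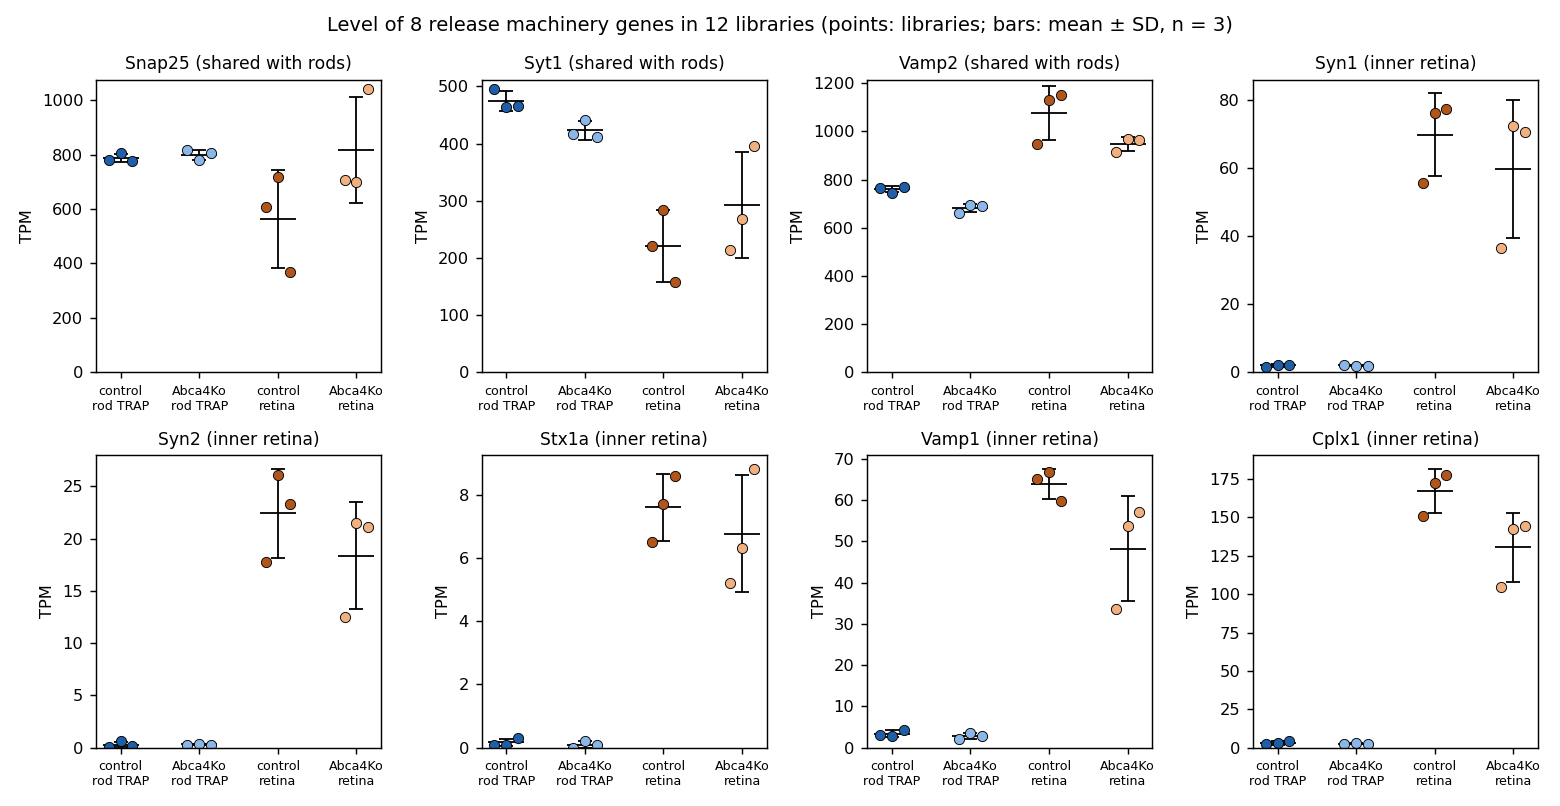
Level of each of the 8 genes in TPM (y axis, from 0) in the 12 libraries, by genotype and fraction (x axis). Points are libraries and bars are the mean ± SD of 3; the 5 inner retina genes lie between 0 and 4.4 TPM in every rod TRAP library, and the 3 shared genes lie above 400 TPM there.

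Snap25, the plasma membrane SNARE shared by most neurons, was at 781.7, 806.3 and 776.5 TPM in control rod TRAP and at 607.5, 717.8 and 367 TPM in control retina. The rod TRAP libraries were close together and all above the retina libraries in TPM, among which replicate 3 was low, whereas in scaled counts the fractions overlapped (13571 to 14093 and 8259 to 14506). The log2 fold change of scaled counts was 0.93 (limma adjusted p = 2.79e-04, SE 0.17), above 77.7% of all genes tested. Without control retina replicate 3 it was 0.56 (limma adjusted p = 3.28e-06), with the authors' scaling alone 0.28 (limma adjusted p = 0.177), and by the TPM values 0.54 (limma adjusted p = 0.05005). In Abca4Ko, rod TRAP held 816.2, 780 and 805.4 TPM and retina 708.3, 698.5 and 1042.5 TPM. These groups overlapped, and the log2 fold change of 0.33 was not called (limma adjusted p = 0.143, SE 0.18), while without replicate 3 it was 0.41 (limma adjusted p = 0.226) and with the authors' scaling alone -0.21, also not called. Splice forms of Snap25 cannot be told apart in values per gene.

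Stx1a, the syntaxin of conventional synapses, was the lowest of the 8 genes in rod TRAP. It had 1 scaled count in each control rod TRAP library against 150, 169 and 210 in control retina, and 1, 3 and 1 in Abca4Ko rod TRAP against 132, 159 and 175 in Abca4Ko retina. Every rod TRAP library lay far below every retina library. Summed over the 3 libraries, rod TRAP held 0.592% of the retina counts in control (95% exact interval 0.122% to 1.74%) and 1.12% in Abca4Ko (0.362% to 2.63%), intervals that treat scaled counts as reads and cover counting error only. The fitted log2 fold change was -3.86 in control (limma adjusted p = 4.12e-09, SE 0.21) and -3.64 in Abca4Ko (limma adjusted p = 3.10e-07, SE 0.23), and it is set at this depth by the pseudocount, being -2.25 and -2.11 with a pseudocount of 2.

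Its ribbon paralog Stx3 was abundant in both fractions. In control it was at 786, 782.4 and 929.4 TPM in rod TRAP and at 681.1, 684.2 and 577.5 TPM in retina, groups that did not overlap in TPM but did in scaled counts (15465 to 18842 and 15865 to 18518), and the log2 fold change of scaled counts was 0.67 (limma adjusted p = 2.95e-04, SE 0.12). With the authors' scaling alone it was 0.02 and was not called (limma adjusted p = 0.849). In Abca4Ko the range was 856.6 to 1011.7 TPM in rod TRAP and 593.7 to 888.8 TPM in retina, and the log2 fold change of 0.68 had a limma adjusted p of 0.0503, or 0.00206 with the replicate number as a block, and was 0.51 without replicate 3 (limma adjusted p = 0.236). Over the 13 alternatives in Abca4Ko the Stx3 fold ran from 0.14 to 0.93 and was called in 5.

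Vamp2, the synaptobrevin shared with rods, had the highest mean level of the 8 genes in retina, at 948.2, 1132.2 and 1149.7 TPM in control retina and 765.3, 744.9 and 767.4 TPM in control rod TRAP. All rod TRAP libraries were below all retina libraries, in TPM and in scaled counts. After rescaling, the log2 fold change was -0.18 in control (95% interval -0.44 to 0.08, limma adjusted p = 0.188) and -0.22 in Abca4Ko (-0.62 to 0.18, limma adjusted p = 0.307), or -0.31 there without replicate 3 (limma adjusted p = 0.341). The call turned on the scaling, since with the authors' scaling alone Vamp2 was lower in rod TRAP by -0.83 in control (limma adjusted p = 2.40e-05) and -0.76 in Abca4Ko (limma adjusted p = 3.61e-04), and by TPM values by -0.50 and -0.47. It was also called lower in control when any 1 control retina library was left out, at -0.31 without replicate 1, -0.28 without replicate 2 and -0.21 without replicate 3.

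Vamp1, the other synaptobrevin, was at 3, 2.8 and 4.3 TPM in control rod TRAP and at 65, 66.8 and 59.8 TPM in control retina. In Abca4Ko it was at 2, 3.5 and 2.8 TPM in rod TRAP and at 33.7, 53.7 and 57.2 TPM in retina. It was the inner retina isoform of which most was left in rod TRAP, 5.27% ± 1.28 of the retina level in control and 5.74% ± 1.56 in Abca4Ko (SD, n = 3). The log2 fold change of scaled counts was -3.33 in control (limma adjusted p = 1.67e-09, SE 0.16) and -3.23 in Abca4Ko (limma adjusted p = 1.42e-07, SE 0.17).

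Syt1, the calcium sensor of fast release, was the gene of the 8 most raised by the pull-down. Control rod TRAP held 494.9, 464.2 and 465.9 TPM and control retina 220, 284.1 and 158.4 TPM, so every rod TRAP library was above every retina library. The log2 fold change of scaled counts was 1.51 (limma adjusted p = 6.58e-07, SE 0.14), above 86.8% of all genes tested, and it stayed called in all 12 alternatives, at 0.86 to 1.57. In Abca4Ko the levels were 417, 441.2 and 410.7 TPM in rod TRAP and 214, 268.3 and 394.9 TPM in retina, where replicate 3 came close to the rod TRAP libraries. In scaled counts the fractions overlapped in Abca4Ko, at 17078 to 19213 and 12816 to 19289. The log2 fold change there was 0.86 (limma adjusted p = 0.00111, SE 0.17), 1.02 without Abca4Ko replicate 3 in both fractions (limma adjusted p = 0.00543) and 0.32 with the authors' scaling alone, which was not called (limma adjusted p = 0.114).

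Cplx1, the complexin of conventional synapses, fell most in the fit. It was at 150.6, 172.6 and 177.6 TPM in control retina and at 2.2, 2.9 and 4.4 TPM in control rod TRAP, and at 104.6, 142.5 and 144.3 TPM and 2.6, 2.9 and 2.7 TPM in Abca4Ko. The log2 fold change of scaled counts was -5.29 in control (limma adjusted p = 3.40e-10, SE 0.20), with 0.614% of genes tested below it, and -5.08 in Abca4Ko (limma adjusted p = 2.15e-08, SE 0.15). The ribbon complexins went apart from each other. Cplx4, the complexin of rod terminals, rose in rod TRAP, from 476.9, 465.3 and 275.5 TPM in control retina to between 1347.8 and 1462.3 TPM, with a log2 fold change of 2.16 (limma adjusted p = 1.01e-07, SE 0.17). Cplx3, known from cones and rod bipolar cells, fell from between 377.8 and 601.5 TPM to between 73.3 and 111.4 TPM, by 2.21 on the log2 scale (limma adjusted p = 3.33e-08, SE 0.15). In Abca4Ko the log2 fold changes were 1.61 for Cplx4 and -2.21 for Cplx3, and without replicate 3 they were 1.52 and -2.28, all called.

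Syn1 and Syn2, which coat vesicles of the reserve pool, were both nearly lost. Syn1 was at 1.5, 2.2 and 2.2 TPM in control rod TRAP against 55.8, 76.3 and 77.5 TPM in control retina, and at 2.1, 1.9 and 1.8 TPM against 36.5, 72.6 and 70.7 TPM in Abca4Ko. Syn2 was at 0.1, 0.6 and 0.2 TPM against 17.8, 26.1 and 23.3 TPM in control, and at 0.3, 0.4 and 0.3 TPM against 12.5, 21.5 and 21.1 TPM in Abca4Ko. No rod TRAP library reached the lowest retina library for either gene. In control the log2 fold changes of scaled counts were -4.62 for Syn1 (limma adjusted p = 4.48e-10, SE 0.18) and -5.01 for Syn2 (limma adjusted p = 7.75e-09, SE 0.29), and in Abca4Ko they were -4.44 (limma adjusted p = 4.88e-08) and -4.77 (limma adjusted p = 5.48e-08). The Syn2 fold also depends on the pseudocount, being -3.75 and -3.60 with a pseudocount of 2, since its rod TRAP libraries held 2 to 16 scaled counts in control and 8 to 9 in Abca4Ko. Of the exonic bases in the GENCODE M21 annotation, 0.273% of Syn1 overlap Araf and 1.28% of Syn2 overlap Timp4 on the opposite strand, and reads of these bases cannot be assigned to 1 gene without strand. The third synapsin, Syn3, was low in both fractions, at 0.2 to 0.6 TPM in control rod TRAP and 1 to 2.7 TPM in control retina, and its log2 fold change was -0.90 (limma adjusted p = 0.00631).

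Syn1, Vamp1 and Cplx1 kept their calls under every one of the 12 alternatives in control and the 13 in Abca4Ko, and without Abca4Ko replicate 3 their log2 fold changes ran from -5.10 for Cplx1 to -3.22 for Vamp1. Stx1a and Syn2 were at -3.54 and -4.70 without that replicate. Among themselves the 5 genes differed in how much was left. The counts summed over 3 control rod TRAP libraries were 0.592% of retina for Stx1a, 1.18% for Syn2 (95% exact interval 0.763% to 1.75%), 1.51% for Cplx1 (1.29% to 1.75%), 2.33% for Syn1 (1.99% to 2.71%) and 6.10% for Vamp1 (5.46% to 6.80%). These intervals cover counting error only, and by library the order was less clear. In control TPM, Syn1 at 2.15% to 3.15% of the retina mean overlapped Cplx1 at 1.32% to 2.64%, Syn2 at 0.446% to 2.68% and Stx1a at 1.32% to 3.95%. Vamp1 at 4.38% to 6.73% alone lay apart from the others. By mean TPM Stx1a was at 2.19%, above Syn2 (1.34%) and Cplx1 (1.90%), so its place as the least retained held in the summed counts only.

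**Figure D2:**
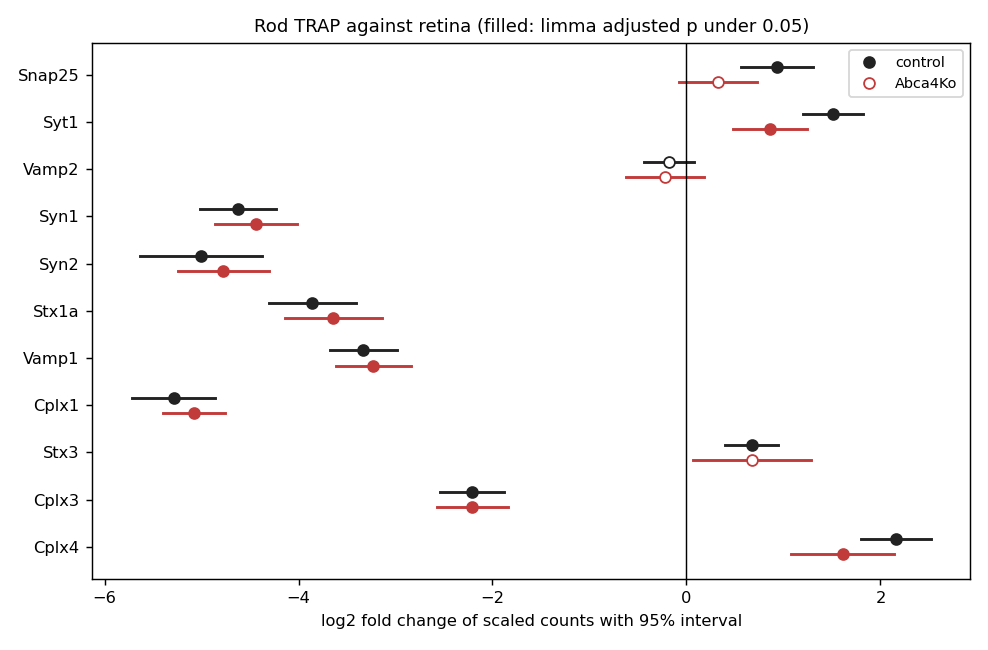
Log2 fold change of scaled counts, rod TRAP against retina (x axis), for the 8 genes and the ribbon paralogs Stx3, Cplx3 and Cplx4 (y axis), in control and Abca4Ko, with 95% intervals from limma. Filled points have a limma adjusted p under 0.05; the 5 inner retina genes lie between -5.29 and -3.23, and the shared genes between -0.22 and 1.51.

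Apart from the pseudocount, a ratio of 2 genes within a library does not depend on how libraries are scaled to each other, so it compares the isoforms directly. Each of the 3 shared genes was set over each of the 5 inner retina genes, and 3 ribbon paralogs were set over their conventional counterparts, 18 pairs in all. Every pair had a higher ratio in rod TRAP than in retina, with p = 0.005 for each by an exact two-sided permutation test of fraction within genotype (n = 6 libraries per fraction, 400 arrangements, the smallest p they can give) and 0.005 after adjustment over the 18 pairs. A difference was fixed for Stx1a and Syn2, so the p-values of pairs over them add no support. The pairs share genes and libraries and were chosen with earlier results known, and no background of other pairs was computed. The sizes of the differences, more than the p-values, therefore carry the contrast. Without Abca4Ko replicate 3 all 18 still had the smallest p of the 120 arrangements, 0.0167. The Vamp2 to Vamp1 log2 ratio was 3.44 to 3.87 in control retina and 6.58 to 7.07 in control rod TRAP, and 3.64 to 4.35 and 6.66 to 7.25 in Abca4Ko. Averaged over the genotypes the difference between fractions was 3.08, the least among the 15 pairs of a shared and an inner retina gene, and the largest was 6.37 for Syt1 over Cplx1. For Stx3 over Stx1a it was 4.40, for Cplx3 over Cplx1 2.97 and for Cplx4 over Cplx1 7.06. Cplx3 thus fell less than Cplx1 although both fell. Ratios over Stx1a depend most on the pseudocount, since its rod TRAP counts were 1 to 3, and next those over Syn2, which with a pseudocount of 2 went from 5.51 to 4.28 for Snap25, from 6.07 to 4.84 for Syt1 and from 4.68 to 3.45 for Vamp2. The other ratios also fell, but less. Syt1 over Cplx1 went from 6.37 to 5.94, Cplx4 over Cplx1 from 7.06 to 6.64 and Vamp2 over Vamp1 from 3.08 to 2.86.

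**Figure D3:**
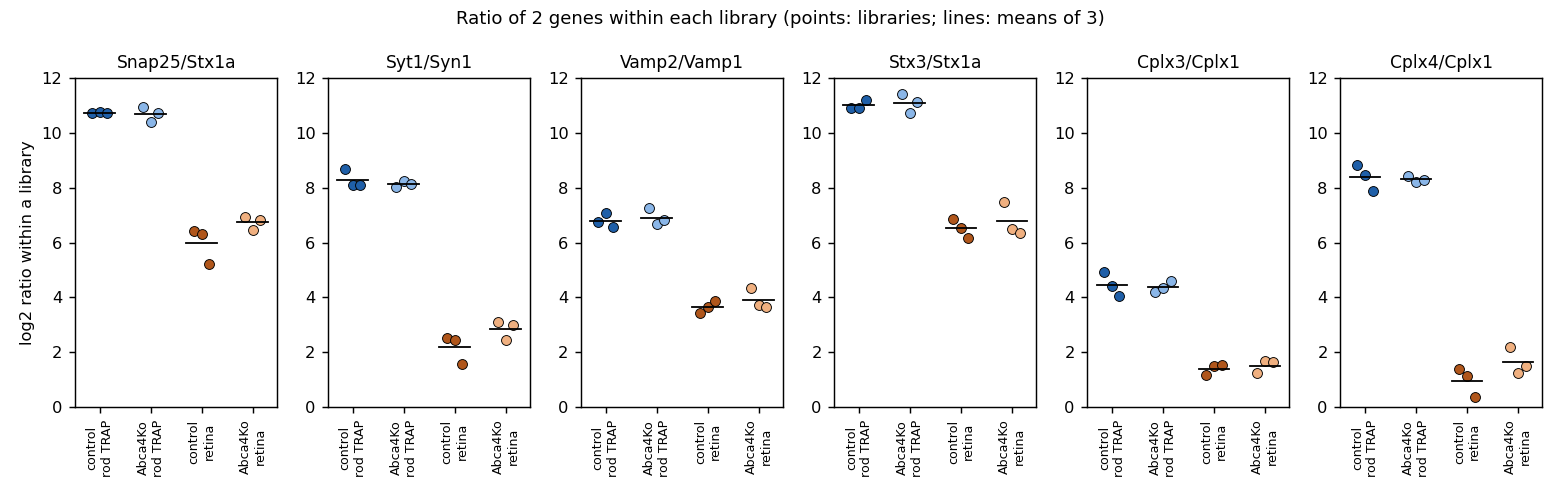
Log2 ratio of 2 genes within each library (y axis) for 6 pairs, by genotype and fraction (x axis). Points are libraries and lines are means of 3; for Vamp2 over Vamp1 the rod TRAP libraries lie between 6.58 and 7.25 and the retina libraries between 3.44 and 4.35, and the fractions do not overlap in any of the pairs.

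Markers of other retinal cells moved with the inner retina genes. In control the summed TPM of 10 bipolar cell markers was 86.9 to 99.6 in rod TRAP and 1276.7 to 2130.1 in retina (5.17% of the retina mean), that of 10 amacrine markers 46.8 to 55.3 and 1058.6 to 1407.1 (4.07%), and that of 9 ganglion cell markers 11.3 to 18.2 and 969.2 to 1051.5 (1.57%). Müller glia markers (8 genes) were left at 2.35%, cone markers (8) at 22.0% and horizontal cell markers (5, of which 1 was listed at 0 in rod TRAP) at 24.6%. Of the tested genes on these lists all were lower in control rod TRAP except the bipolar marker Prkca, which was 1.57 higher on the log2 scale. Single genes held much of what was left on some lists. Prkca made up 72.2 of 93 TPM of the bipolar sum, Slc6a9 30.2 of 50.9 TPM of the amacrine sum and Septin4 45.3 of 46.1 TPM of the horizontal cell sum in control rod TRAP. Without the leading gene of each list, chosen after its values were seen, 1.18% of the bipolar, 1.87% of the amacrine, 1.33% of the ganglion, 1.28% of the Müller and 4.46% of the horizontal cell markers were left, and 22.5% of the cone markers. The inner retina isoforms stood at 1.34% to 5.27%, and the part of other cells in what was left was not tested.

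The rest of the release machinery was also divided in direction. Of 56 further genes 54 had a row and were tested, and 51 were called in control, 16 higher and 35 lower (75.4% of all genes tested were called, 36.6% higher and 38.8% lower), with a median log2 fold change of -1.33 against -0.03 for all genes tested. In Abca4Ko 46 were called, 13 higher and 33 lower, where 64.1% of all genes were. Of the 54 genes, 45 had enough counts in rod TRAP to be tested there by genotype, and so had 7 of the 13 calcium sensors. The others passed the filter only through the retina libraries, so that a difference was fixed for them and their calls add no support. Among calcium sensors 12 of 13 were lower and 1 was higher (Doc2b), and among vesicle proteins 9 of 13 were lower and 3 higher (Sv2b, Syp and Dnajc5). In TPM, Syp stood at 103% of the retina mean in control rod TRAP (98.6% to 107% by library), Dnajc5 at 129% and Sv2b at 266%. These counts by direction were not recomputed with the authors' scaling alone. Of the priming and SNARE recycling factors 6 of 10 were higher and 3 lower, against 36.6% and 38.8% of all genes, and the active zone list held 2 higher (Rims2 and Erc2) and 4 lower of 6. Of the 8 other SNAREs tested 3 were higher and 4 lower in control, whereas in Abca4Ko 0 were higher and 4 lower. In Abca4Ko 5 of the 8 had an unadjusted p under 0.05, where 67.2% of all genes tested did.

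Among the lowest of the list in control were the synaptotagmins Syt13 (log2 fold change -5.69), Syt2 (-5.36) and Syt7 (-4.94) and the Rab3 effector Rph3a (-5.66). The highest were Rims2 (3.20), an active zone scaffold, Unc13b (2.73), a priming factor, the tomosyns Stxbp5l (2.26) and Stxbp5 (1.81), and Cplx4. Syt2 was at 0 to 0.1 TPM in control rod TRAP, and its fold was -3.75 by the TPM values. These 9 genes kept their calls and directions under every alternative in both genotypes. For any of them that passed the filter only through retina, this adds no support.

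**Figure D4:**
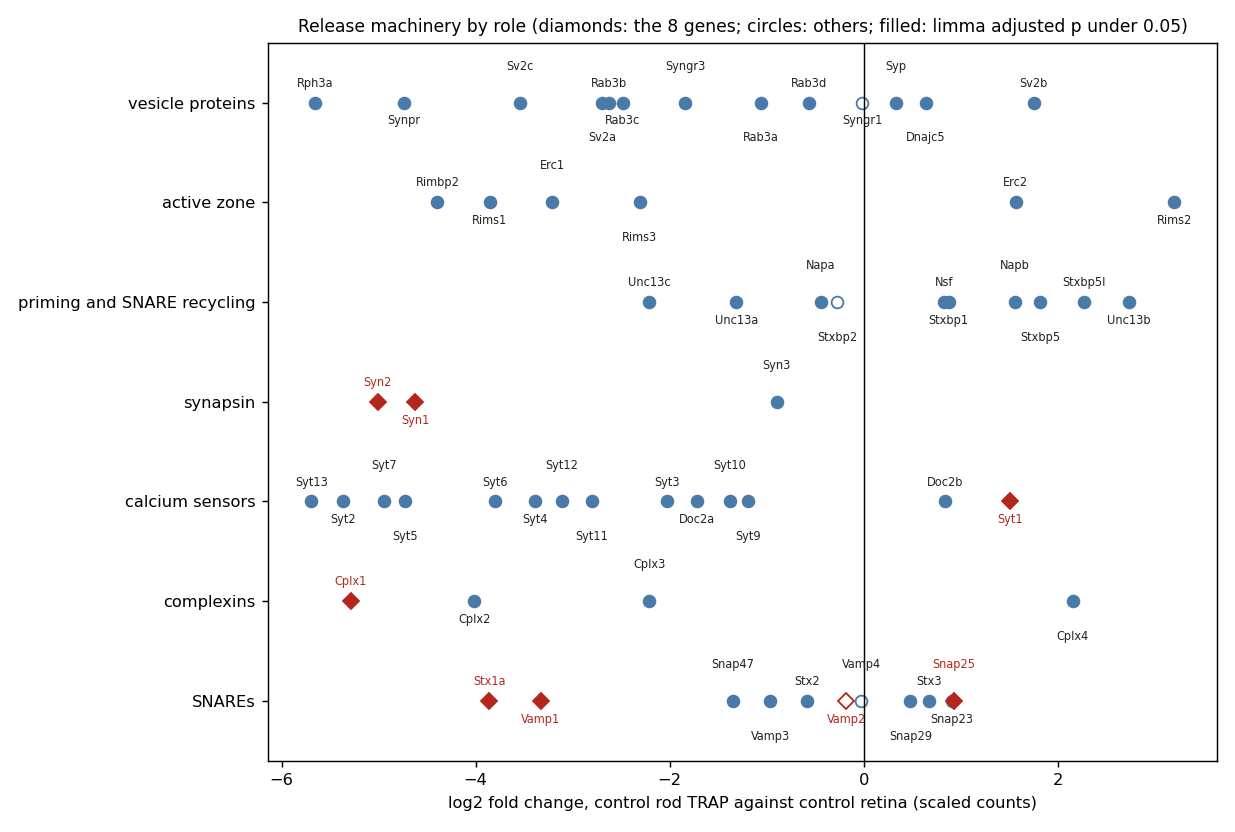
Log2 fold change of scaled counts in control rod TRAP against control retina (x axis) for the 8 genes (diamonds) and further release machinery genes (circles), grouped by role (y axis). Filled symbols have a limma adjusted p under 0.05. Of the 13 other calcium sensors 12 lie below 0, some of which passed the filter only through retina. Of 10 priming and recycling factors 6 lie above 0 as called genes.

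Loss of ABCA4 gave no call among the 8 genes. In rod TRAP 0 of the 6 genes tested were called (Stx1a and Syn2 were too low to be tested), where 1.09% of 13104 genes were. None of the 6 had an unadjusted p under 0.05, where 10.4% of all genes tested did. The count was also 0 without Abca4Ko rod TRAP replicate 3. The shared genes were bounded closely, with 95% intervals of the log2 difference of -0.13 to 0.30 for Snap25, -0.31 to 0.10 for Syt1 and -0.28 to 0.09 for Vamp2. The inner retina genes had wider intervals, -0.41 to 0.49 for Syn1, -0.60 to 0.19 for Vamp1 and -0.53 to 0.45 for Cplx1. In scaled counts Vamp2 alone of the 8 did not overlap between genotypes in rod TRAP, with 12359 to 13230 in Abca4Ko and 13318 to 13937 in control, and 16.1% of all genes tested did not overlap. In TPM, Syt1 also did not overlap (410.7 to 441.2 and 464.2 to 494.9).

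In retina 0 of the 8 genes were called, where 0.106% of 16964 were. Abca4 itself, at a log2 difference of -5.60, was not called there either (limma adjusted p = 0.400, SE 1.59). Its Abca4Ko libraries lay far apart, since replicate 3 kept Abca4 messages. The SE for Cplx1 was 0.16, so the missed call of Abca4 does not measure the power for the 8 genes. An absent call is still weak evidence of no change, and the intervals below give the sizes left possible. Of the 8 genes, 3 had an unadjusted p under 0.05, where 12.0% of all genes tested did. Snap25 was higher in Abca4Ko by 0.58 on the log2 scale (95% interval 0.05 to 1.11, limma adjusted p = 0.400), Vamp1 was at -0.42 (-0.77 to -0.06, limma adjusted p = 0.400) and Cplx1 at -0.36 (-0.71 to -0.00284, limma adjusted p = 0.414). Their scaled counts did not overlap between genotypes, at 15005 to 20977 and 8259 to 14506 for Snap25, 1161 to 1690 and 1926 to 2102 for Vamp1, and 2737 to 3322 and 3682 to 4364 for Cplx1, in Abca4Ko and control respectively. That was 3 of 8 genes against 17.0% of all genes tested, whereas in TPM Snap25 overlapped and 2 of 8 did not. Syt1 was at 0.43 (-0.03 to 0.89, limma adjusted p = 0.422), and the log2 differences of Syn1, Syn2, Stx1a and Vamp2 lay between -0.25 and -0.16.

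Single retina libraries bore on these differences. Snap25 and Syt1 were lowest in control retina replicate 3, at 367 and 158.4 TPM, and highest in Abca4Ko retina replicate 3, at 1042.5 and 394.9 TPM. The summed rod markers went the other way, being highest in the former (116096 TPM) and lowest in the latter (87034 TPM) of the 6 retina libraries. Without control retina replicate 3 the Snap25 difference was 0.34 (limma adjusted p = 0.933) and that of Syt1 0.26, and without Abca4Ko retina replicate 3 they were 0.51 and 0.31, with Vamp1 at -0.45 and Cplx1 at -0.32, none called. Syn1, Syn2, Stx1a, Vamp1 and Cplx1 were all lowest in Abca4Ko retina replicate 1, the library with the lowest sums of bipolar (937.9 TPM), amacrine (714.3 TPM) and ganglion cell markers (670.8 TPM). Without it Vamp1 was at -0.32 and Cplx1 at -0.35, neither called. The part of these cell markers in the differences was not tested.

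**Figure D5:**
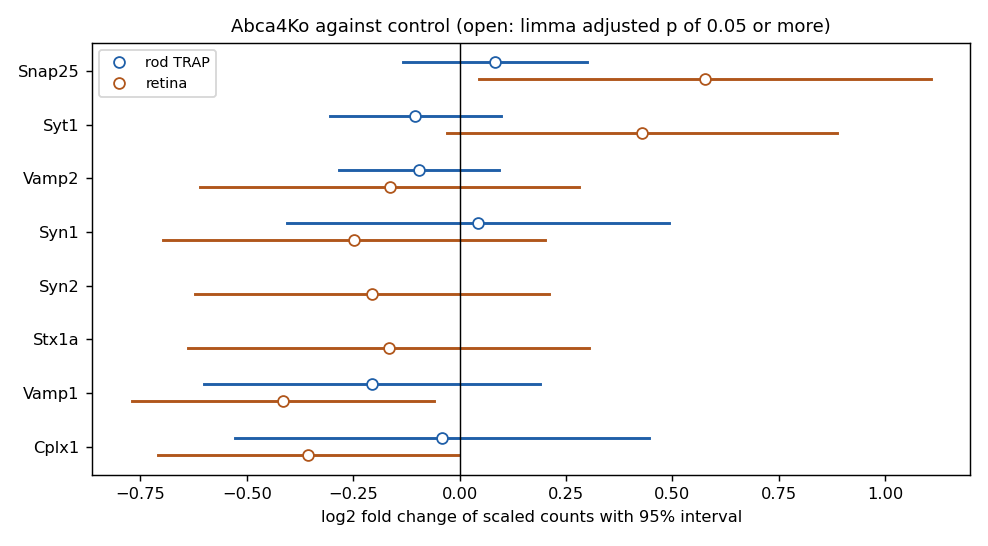
Log2 fold change of scaled counts, Abca4Ko against control (x axis), for the 8 genes (y axis) in rod TRAP and in retina, with 95% intervals from limma. All points are open because none has a limma adjusted p under 0.05; Stx1a and Syn2 were not tested in rod TRAP.

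Whether the loss from rod TRAP depended on genotype was tested by the interaction of genotype and fraction over all 12 libraries, in which 0 of the 8 genes were called and 0.00579% of 17273 genes (1 gene) were. Syt1 was at -0.56 (95% interval -1.03 to -0.08, unadjusted p = 0.0245, limma adjusted p = 0.407) and Snap25 at -0.52 (-1.09 to 0.05, limma adjusted p = 0.475), a smaller gain in Abca4Ko that was not called. Without Abca4Ko replicate 3 these were -0.40 and -0.43 (limma adjusted p = 0.727 and 0.768). For the 5 inner retina genes the interaction lay between 0.18 and 0.30, with limma adjusted p of 0.680 to 0.778. Stx1a and Syn2 were too low in rod TRAP to be tested there by genotype, so their interaction values cannot show whether depletion differed. The interval for Cplx1, -0.25 to 0.84, shows the size of a genotype difference in depletion that 3 libraries a group leave possible.

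Of the 54 other release genes, 45 were tested by genotype in rod TRAP and 2 were called, where 1.09% of all genes were. Syt9, a synaptotagmin, had 788, 713 and 732 scaled counts in Abca4Ko against 419, 408 and 417 in control, with a log2 fold change of 0.84 (limma adjusted p = 0.00276, SE 0.10) that was called under all 12 alternatives. Rims3, a small relative of the RIM scaffolds, had 462, 621 and 629 against 335, 367 and 315, with a log2 fold change of 0.73 (limma adjusted p = 0.0151, SE 0.12). Its call was lost in 6 of the 12 alternatives, namely the TPM values (0.54), the fit of all 12 libraries (0.71) and without any 1 control rod TRAP library (0.68 to 0.79) or Abca4Ko rod TRAP replicate 2 (0.69). Cone markers moved in the same libraries. All 8 were higher in Abca4Ko rod TRAP by 0.24 to 0.69 on the log2 scale (median 0.42), with 6 at an unadjusted p under 0.05 and 1 called (Gngt2, limma adjusted p = 0.0213). Over all genes tested there, 10.4% had an unadjusted p under 0.05 and 1.09% were called. The summed level of the cone markers was 453.3 to 475.1 TPM in control and 563.8 to 697.5 TPM in Abca4Ko rod TRAP, or 22.0% and 38.4% of the retina mean of the genotype. That retina mean was itself lower in Abca4Ko, at 1653.3 against 2101.7 TPM in control. In retina the log2 differences of the 8 cone markers by genotype were -0.65 to -0.21, with 0 called. The part of the cone markers in the Syt9 and Rims3 differences was not tested. In retina 0 of the 54 were called, where 0.106% of all genes were, and Syt9 was at 0.04 and Rims3 at -0.31. Of the 54, 5 had an unadjusted p under 0.05 in retina, where 12.0% of all genes tested did. By the interaction 0 of the 54 were called, with 11 at an unadjusted p under 0.05, Syt9 and Rims3 among them, where 1952 of 17273 genes (11.3%) were.

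The genes whose profile over the 12 libraries was most like the mean of each group were found among 10321 genes with a mean of at least 5 TPM, by the root mean square difference of centred log2(TPM + 1). Nearest to the shared genes were Calu (0.067), Pgrmc1 (0.069) and Asb13 (0.073). Nearest to the inner retina genes were Id2 (0.105), which was at a mean of 0.5 TPM in control rod TRAP and 26.6 TPM in control retina, Shfl (0.111) and Arhgef4 (0.130).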

How the data were processed

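RNA was sequenced from 12 libraries, 3 in each of 4 groups given by the labels. The authors deposited a table of scaled counts, a score made from read counts brought to a common total in each fraction and rounded, and a table of TPM per gene. The submitters' processing notes name CASAVA 1.8.2, HISAT2, DESeq2, edgeR and GRCm39, without their roles. The planned test was one for counts. Because the deposited scaled counts are a score, limma 3.58.1 (trend, robust) in R 4.3.3 was used instead, on log2(CPM + 0.5) after rescaling by the trimmed mean of M values (trims 0.3 and 0.05), for genes with at least 10 scaled counts in at least 3 libraries of a comparison. Tests were two-sided, p-values were Benjamini-Hochberg adjusted over all genes tested, and 0.05 was the threshold. On this scale folds of low genes are understated. Fraction and genotype were compared within 6 libraries each, and the interaction in all 12. On simulated data for the 4 comparisons of 6 libraries, 97% to 99% of genes changed 2-fold were recovered. The changed genes were well expressed and the simulated libraries varied independently with a fixed dispersion. The share recovered therefore does not give the power in the real libraries.

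Same-numbered rod TRAP and retina libraries deviated together across 11738 genes (r 0.143 to 0.158 in control and 0.200 to 0.557 in Abca4Ko). Abca4Ko rod TRAP replicate 2, however, had a higher r with Abca4Ko retina replicate 3 (0.291) than with replicate 2 (0.200), so pairing was not settled for every number. The main fits and the permutation within genotype did not use pairs, which entered only as the replicate block. Across genotypes the numbers did not pair libraries.

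The 8 genes are always named. Of 56 other release genes those named are the 5 highest and 5 lowest in control, Stx3, Cplx3, Cplx4 and any called by genotype; 1 gene that this rule selects is not reported here. Members and lists, cell markers included, were chosen with earlier results of these data known. Stx4 and Vamp7 were not analysed here. Of the exonic 50-base words of the 8 genes, at most 0.192% (Snap25) occur in another gene. Ratios and figures used Python 3.11.15, numpy 2.4.6, scipy 1.17.1, pandas 2.3.3 and matplotlib 3.10.9.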

Additional observations from a re-analysis of the deposited data

How the results depend on the processing

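The numbers of the 8 genes and of all genes called were recomputed under other settings. So were the folds of the 8 genes, of Stx3, Cplx3 and Cplx4, and of Syt9 and Rims3 by genotype in rod TRAP. The 5 highest and 5 lowest other release genes were recomputed by fraction. The settings were the authors' scaling alone, a pseudocount of 2, no filter on low values, the TPM table and the replicate number as a block. A fit of all 12 libraries, each library left out, and Abca4Ko without replicate 3 were also used. The counts of other release genes called, by role or in all, and the calls of cell markers come from the main fits alone. The numbers of the 8 genes called moved by at most 1 (7 or 8 in control and 6 or 7 in Abca4Ko for fraction, 0 for genotype and interaction), but which genes were called changed. In control 2 higher and 5 lower became 1 higher and 6 lower with the authors' scaling alone or the TPM values (Snap25 lost, Vamp2 gained), and in Abca4Ko 1 and 5 became 0 and 6 with the authors' scaling alone (Syt1 lost, Vamp2 gained). The 18 ratios passed in the 4 alternatives run for them (TPM values, pseudocount of 2, replicate block and without Abca4Ko replicate 3), and under the replicate block each had the smallest p of the exact permutation test, 0.0312. Here too the ratios over Stx1a and Syn2 add no support. Of 962 values of single genes, 10 lost a call, 13 gained one and 0 called values reversed. Those of the 8 genes are given beside their results, except that Cplx4 was called lower by genotype in rod TRAP (-0.21) without Abca4Ko rod TRAP replicate 1. The block changed no call of the 8 genes.

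Counts over all genes moved more. For genotype in rod TRAP, 143 became 58 in the TPM table, 94 with all 12 libraries and 30 to 615 with a library left out. For genotype in retina, 18 became 33 without the filter, 38 in the TPM table, 46 with the replicate block, which there joins libraries that share only a number, 62 with all 12 libraries and 4 to 37 with a library left out. For the interaction, 1 became 3 in the TPM table and 1 to 2 with a library left out. The cause was not tested. At 1 to 3 counts per library, the depth of Stx1a in rod TRAP limits its fold change, and at 2 to 16 counts so does that of Syn2. Leaving out the leading gene of a marker list was added after the data were seen.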
